A study of Mus musculus with 6 samples.

Results

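Iron-sulfur clusters and heme are the iron cofactors of the mitochondrion, and 9 genes of their synthesis were examined in the duodenal epithelium of mice lacking ESRRA (estrogen-related receptor alpha), an orphan nuclear receptor known for its control of mitochondrial genes. They were chosen by name as genes of these pathways, with earlier results of these data known: Nfs1, Iscu, Glrx5, Isca1 and Isca2 for iron-sulfur clusters, and Alas1, Cpox, Ppox and Fech for heme. All 9 were among the 22611 genes of the deposited table, and all 9 were among the 10596 genes whose mean over the 6 libraries exceeded 1 FPKM (fragments per kilobase and per unit of mapped reads, a level scaled for library size and transcript length). Duodenal epithelium, released with EDTA from the first part of the small intestine, was compared by RNA-seq between 3 Esrra-/- mice and 3 WT littermate mice, with 1 library per mouse. Both groups were fed a high-fat diet. Esrra-/- mice, labelled ESRRAKO, carry a germline null allele, so ESRRA was missing from every tissue and not from the intestine alone. Their breeding also involved a Villin-CreERT2 transgene, and whether the sequenced mice carried it, as well as their age, is not given in the sources used here.

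In animal cells the iron-sulfur cluster is first built on the scaffold protein ISCU, with sulfur taken from cysteine by the desulfurase NFS1. A chaperone pair releases it to the glutaredoxin GLRX5, and the ISCA1 and ISCA2 proteins then help to make the larger clusters that respiratory complex I and complex II need. Heme synthesis begins in mitochondria with aminolevulinate synthase (ALAS1 outside red blood cells), passes through the cytosol, and returns to mitochondria for the steps of CPOX, PPOX and FECH, the last of which inserts iron into protoporphyrin and itself holds an iron-sulfur cluster. The duodenum is the main site of dietary iron uptake, and its epithelium renews constantly from the crypts.

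Isca1 was the only one of the 9 genes called lower in Esrra-/- epithelium, at 60.7% of its WT level, and none was called higher. Its partner Isca2, the scaffold Iscu, the desulfurase Nfs1 and all 4 heme genes were not called, and Glrx5 stood between, past the p threshold but short of the fold threshold. A gene was called when limma, fitted to log2(FPKM + 0.1) over all 10596 genes, gave an unadjusted p under 0.05 with a log2 fold change beyond 0.58 in either direction. By this rule 348 genes were lower (3.28% of those tested) and 143 were higher (1.35%), and at an adjusted p under 0.05 there were 4 genes (0.0378%). The median log2 fold change was -0.12 over the 9 genes, -0.26 over the 5 iron-sulfur genes and -0.01 over the 4 heme genes, against 0.03 over all genes tested. Leaving out 1 library moved the median of the 9 between -0.18, without WT replicate 1 or 2, and -0.02, without WT replicate 3.

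The DNA before the start of Isca1 is shown because it was the called gene and because ESRRA is known to bind the letters AAGGTCA. These 250 bases, from RefSeq on GRCm38.p6, lie on the minus strand at chr13:59769790-59770039 and end just before the annotated start, and capitals mark the AAGGTCA, from position -135 to -129.
Isca1: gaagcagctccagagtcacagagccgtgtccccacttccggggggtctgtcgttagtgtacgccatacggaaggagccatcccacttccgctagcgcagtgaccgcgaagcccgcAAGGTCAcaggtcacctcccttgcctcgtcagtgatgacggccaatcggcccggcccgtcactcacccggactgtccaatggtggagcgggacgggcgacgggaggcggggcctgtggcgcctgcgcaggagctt
Promoter windows from 250 bases before to 50 after an annotated start were searched on both strands, and 7 of the 9 genes matched an entry (Nfs1, Isca1, Isca2, Glrx5, Alas1, Cpox and Ppox). AAGGTCA was found in 1 of the 7, Isca1, against 5.38% of the 27025 genes with such a window and 4.15% of the 7559 among them that were tested. The longer form TCAAGGTCA, which contains AAGGTCA, was in none of the 7 and in 0.466% of all genes. CCAAT stood in 4 of the 7 (Isca1, Isca2, Glrx5 and Ppox), near the 41.1% of all genes that held it. These matches describe letters only, and no binding was measured in these libraries.

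On mm9, the build used by the authors, the 9 genes are protein-coding and lie on 8 chromosomes. The iron-sulfur genes are Nfs1 at chr2:155904665-155969922, Iscu at chr5:114222757-114228297, Glrx5 at chr12:106270899-106279120, Isca2 at chr12:86114220-86116039 and Isca1 at chr13:59856770-59871171. The heme genes are Alas1 at chr9:106135786-106150457, Cpox at chr16:58670321-58680504, Ppox at chr1:173206121-173211317 and Fech at chr18:64616204-64648720. Reads from exons that overlap on the same strand cannot be told apart, and since the library kit did not keep the strand, neither can those of opposite strands. This touches 22.6% of the exonic bases of Nfs1, which overlap Cpne1 and Rbm12 on the same strand and Romo1 on the opposite one, 17.5% of those of Ppox, which overlap B4galt3 on the opposite strand, and 2.65% of those of Alas1, while the exons of Isca1 (4288 bases), Isca2, Iscu, Glrx5, Cpox and Fech overlapped no other annotated exon.

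Esrra was measured at 49.4, 73.5 and 104 FPKM in the 3 WT libraries and at 10.4, 9.42 and 8.72 FPKM in the 3 Esrra-/- libraries. The groups were far apart, with 12.6% of the WT mean remaining (log2 fold change -2.92 ± 0.26 (SE), limma, adjusted p = 0.0215), so the labels matched the deleted gene. The libraries held between 15374 and 15988 genes above 0, and their total read counts were not used here. What 1 read was worth in FPKM, read from low values, differed by a factor of 1.24 between the extremes, so the libraries were of similar depth. Genes of the Y chromosome summed to between 27.3 and 46.7 FPKM in replicates 1 and 2 of both genotypes. They summed to 0.0487 and 0.222 FPKM in WT replicate 3 and Esrra-/- replicate 3, so these 2 libraries are also described apart below. The sample labels give no sex, and the authors report using males and females for experiments with Esrra-/- mice.
The tissue label was checked against marker genes. All 10 enterocyte markers were measured, with summed levels of 38070 to 63060 FPKM in WT and 47990 to 64590 FPKM in Esrra-/- libraries, and none of them was called. The 7 crypt markers summed to between 200 and 319 FPKM in WT and between 101 and 238 FPKM in Esrra-/- libraries. All 7 had a negative fold change (median log2 fold change -0.61), 2 of them at p under 0.05 and none called. The summed levels of the 8 immune markers overlapped between genotypes (26.4 to 51.5 against 23.4 to 47.5 FPKM), as did those of the 7 mesenchymal ones (2.28 to 4.10 against 2.21 to 5.46) and the 5 goblet ones (2465 to 2932 against 2647 to 3014). Single markers of these lists did not all overlap: the goblet gene Clca3 was at 229 to 330 FPKM in WT and 354 to 363 FPKM in Esrra-/- libraries, and Acta2 of smooth muscle, below the expression filter, at 0.0327 to 0.116 and 0.117 to 1.04 FPKM. Of the 6 pancreatic acinar markers, 5 were listed at 0 in all libraries and the list never exceeded 0.265 FPKM. In such bulk tissue, fewer cells of a type and less RNA per cell cannot be told apart, and the part of the crypt markers in the results below was not tested.

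Of the core assembly proteins, Nfs1, which provides the sulfur, was measured at 12.0, 11.6 and 13.4 FPKM in WT and 10.7, 11.6 and 13.2 FPKM in Esrra-/- libraries. Esrra-/- replicates 1 and 2 lay at or below the lowest WT value, replicate 3 lay within the WT range, and the means were 12.3 ± 0.928 and 11.8 ± 1.24 FPKM (mean ± SD, n = 3 each). On the log2 scale the fold change of Nfs1 was -0.06 ± 0.13 (SE), with a 95% interval of -0.36 to 0.24, which leaves out a change as large as the fold threshold in either direction.
Iscu, the scaffold, stood at 42.9, 41.0 and 58.1 FPKM in WT and 43.8, 39.6 and 46.3 FPKM in Esrra-/- libraries. WT replicate 3 was well above the other 5 libraries, which lay between 39.6 and 46.3 FPKM regardless of genotype. The log2 fold change of Iscu was -0.12 ± 0.17 (95% interval -0.51 to 0.28; limma, adjusted p = 0.827), and without WT replicate 3 it was 0.04.

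Glrx5, the glutaredoxin that receives the new cluster, was measured at 46.4, 51.9 and 65.9 FPKM in WT and 38.4, 38.3 and 42.8 FPKM in Esrra-/- libraries. Every Esrra-/- value was below every WT value, and the WT values were the more scattered (54.7 ± 10.0 against 39.9 ± 2.59 FPKM). Glrx5 was at 72.8% of WT, with a log2 fold change of -0.44 ± 0.16 (95% interval -0.82 to -0.07; adjusted p = 0.399 by limma). At an unadjusted p under 0.05 with no fold threshold, 6.49% of all tested genes were lower, Glrx5 and Isca1 among them, and 4.30% were higher, with none of the 9. Glrx5 was not past that p when WT replicate 2, WT replicate 3, Esrra-/- replicate 1 or Esrra-/- replicate 2 was left out (log2 fold changes of -0.47, -0.30, -0.42 and -0.42).

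Isca1, a late-acting factor of cluster maturation, was measured at 53.2, 50.4 and 63.1 FPKM in WT and 31.4, 31.0 and 38.9 FPKM in Esrra-/- libraries. The highest Esrra-/- library was 11.5 FPKM below the lowest WT library. Isca1 fell from 55.6 ± 6.70 to 33.8 ± 4.43 FPKM, a log2 fold change of -0.72 ± 0.15 (95% interval -1.08 to -0.36; limma, adjusted p = 0.238). The exact permutation test on the 6 values gave p = 0.1, the smallest that 3 libraries against 3 allow. Isca1 and Glrx5 were the 2 of the 9 genes whose Esrra-/- values all lay below the WT values, which held for 9.14% of all tested genes. None of the 9 had every Esrra-/- value above every WT value, against 8.45% of all tested genes.
Isca2, which forms a complex with ISCA1, was measured at 33.1, 34.4 and 40.9 FPKM in WT and 28.7, 26.5 and 35.5 FPKM in Esrra-/- libraries. Here only Esrra-/- replicate 3 reached into the WT range, and the means were 36.1 ± 4.23 and 30.2 ± 4.70 FPKM. The log2 fold change was -0.26 ± 0.16 (95% interval -0.63 to 0.11, limma adjusted p = 0.589). Isca2 was called in none of the 15 alternative fits. Its unadjusted limma p was 0.016 under quantile normalization, 0.0317 with the replicate block and 0.0254 with the Y-linked covariate. With 1 library left out, that p was 0.0416 at the lowest.

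**Figure D1:**
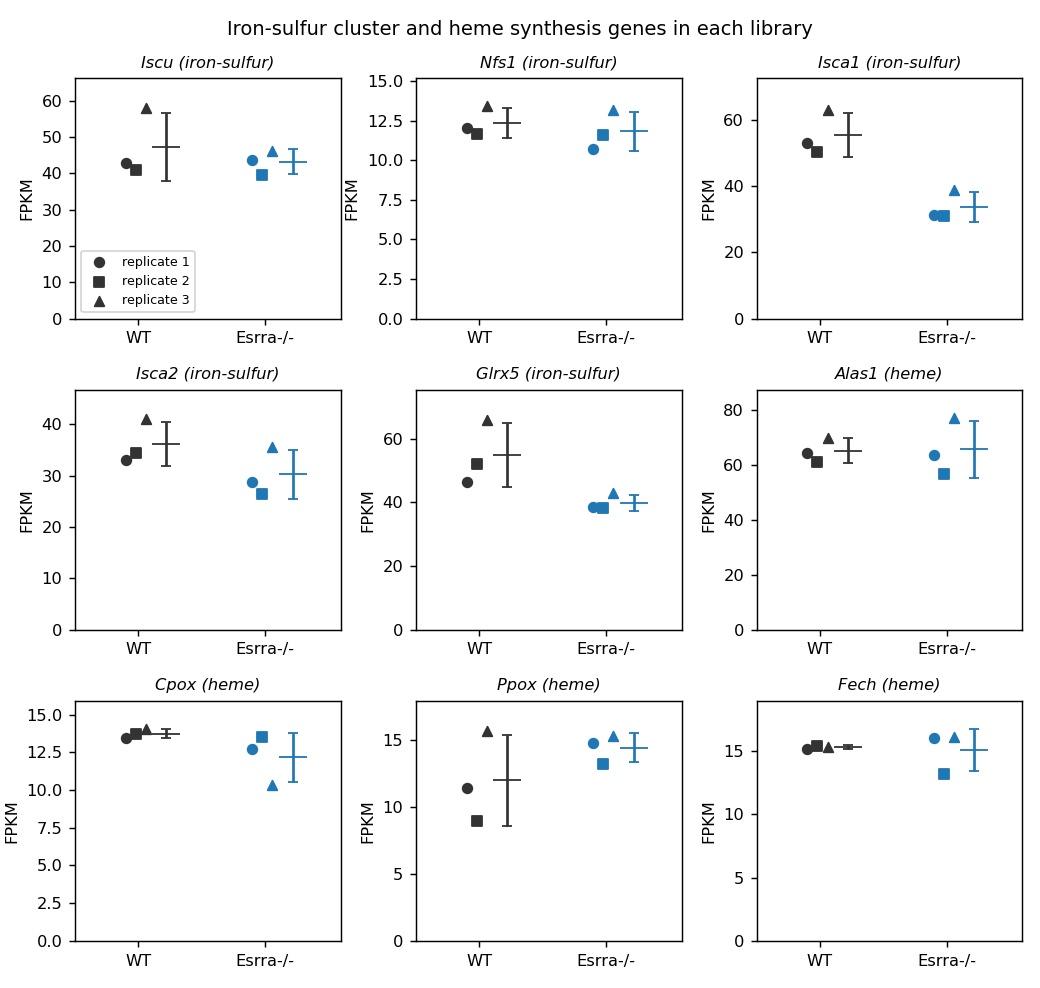
Levels of the 9 genes in FPKM (vertical axes from 0) in each WT (black) and Esrra-/- (blue) library; symbols mark the replicate, and the horizontal and vertical bars the mean ± SD of 3 libraries. Isca1 and Glrx5 are the panels in which the 3 Esrra-/- points lie below the 3 WT points, and triangles (replicate 3) are the top point of their genotype in 8 of 9 panels for WT and 8 of 9 for Esrra-/-.

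Alas1, the first and usually rate-limiting enzyme of heme synthesis, was measured at 64.6, 61.0 and 70.1 FPKM in WT and 63.6, 56.8 and 77.1 FPKM in Esrra-/- libraries. The Esrra-/- values enclosed the WT values, and the means were 65.2 ± 4.54 and 65.8 ± 10.3 FPKM. The log2 fold change of Alas1 was 0.00 ± 0.15, with a 95% interval of -0.36 to 0.37.
Cpox, which makes protoporphyrinogen, stood at 13.5, 13.7 and 14.0 FPKM in WT and 12.7, 13.5 and 10.3 FPKM in Esrra-/- libraries. The WT libraries were tightly grouped, Esrra-/- replicate 2 lay within their range, and Esrra-/- replicate 3 lay farthest below it. Cpox had a log2 fold change of -0.18 ± 0.13 (95% interval -0.50 to 0.13; limma, adjusted p = 0.648).
Ppox, which oxidises protoporphyrinogen, was measured at 11.4, 8.94 and 15.6 FPKM in WT and 14.7, 13.2 and 15.3 FPKM in Esrra-/- libraries. The scatter was in WT (12.0 ± 3.39 against 14.4 ± 1.07 FPKM), whose highest library exceeded all 3 Esrra-/- libraries. Ppox had a log2 fold change of 0.30 ± 0.20, and its 95% interval of -0.18 to 0.78 is the widest of the 9 genes. It was 0.11 without WT replicate 2 and 0.51 without WT replicate 3, short of the fold threshold in both. With 1 library left out, the unadjusted limma p of Ppox was 0.0163 at the lowest, past the p threshold.
Fech, the enzyme that inserts the iron, was measured at 15.1, 15.4 and 15.3 FPKM in WT and 16.0, 13.2 and 16.1 FPKM in Esrra-/- libraries. The WT spread was only 0.155 FPKM, and the Esrra-/- libraries lay on both sides of it. Fech had a log2 fold change of -0.02 ± 0.12, with a 95% interval of -0.31 to 0.27.

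**Figure D2:**
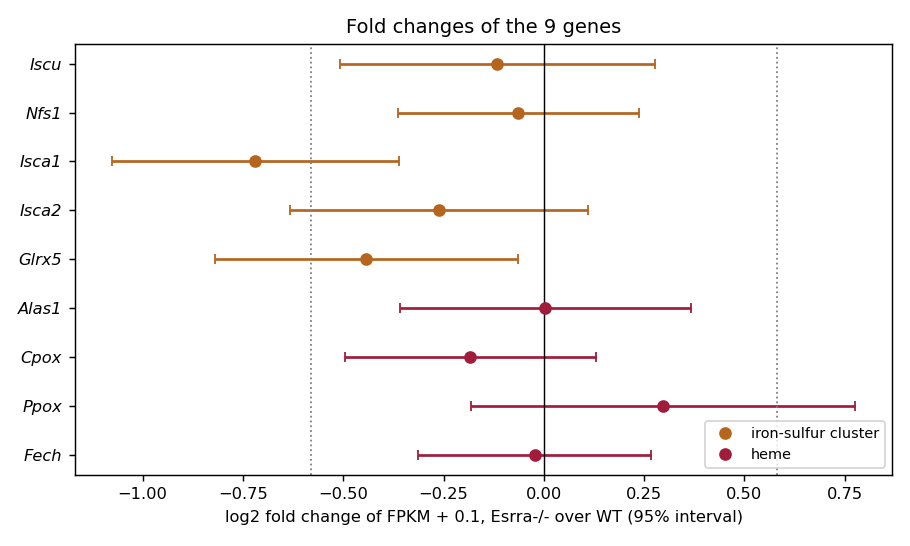
Log2 fold change of FPKM + 0.1 (Esrra-/- over WT, horizontal axis) of the 5 iron-sulfur cluster genes (brown) and the 4 heme genes (red), with 95% intervals from limma; dotted lines mark the fold threshold of 0.58 in each direction. The intervals of Isca1 (-1.08 to -0.36) and Glrx5 (-0.82 to -0.07) lie below 0, and the other 7 include 0.

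Levels per transcript length put Alas1 first in both genotypes. In WT it was followed by Isca1, Glrx5, Iscu, Isca2, Fech, Cpox, Nfs1 and Ppox. Neighbours from Alas1 to Iscu overlapped in their WT ranges, and the range of Ppox enclosed those of Nfs1, Cpox and Fech, so these places are not separated. In Esrra-/- libraries the order after Alas1 was Iscu, Glrx5, Isca1, Isca2, Fech, Ppox, Cpox and Nfs1, and all neighbours after Alas1 overlapped in range except Isca2 and Fech.
The balance between partners was compared as the log2 ratio of levels within each library, for 4 ratios chosen after the values were seen. The log2 ratio of Isca1 to Isca2 was 0.69, 0.55 and 0.63 in WT and 0.13, 0.23 and 0.13 in Esrra-/- libraries. Thus Isca1 exceeded Isca2 in all 6 libraries, by less in Esrra-/- (mean log2 ratio 0.16 ± 0.06 against 0.62 ± 0.07, a difference of -0.46). The log2 ratio of Isca1 to Iscu was 0.24 ± 0.11 in WT and -0.36 ± 0.11 in Esrra-/- libraries, changing sign between the genotypes. Among these ratios, chosen with their values known and therefore given without a test, the groups also did not overlap for Nfs1 to its stabilising partner Lyrm4 (1.32 ± 0.12 in WT and 1.70 ± 0.12) and Bola3 to Glrx5 (-0.13 ± 0.09 in WT and -0.43 ± 0.10). The Isca1 ratios share the Isca1 values given above.

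Most of the 9 genes were highest in replicate 3 of their genotype. WT replicate 3 held the highest WT value of 8 genes (all but Fech), and Esrra-/- replicate 3 the highest Esrra-/- value of 8 (all but Cpox). Cpox went the other way in Esrra-/- libraries, with its lowest value in replicate 3. These are the 2 libraries without Y-linked transcripts, and a high replicate 3 was not particular to these genes. The FPKM values of all genes summed to 999902 and 901171 there, the highest of each genotype. The enterocyte markers summed to the highest level of their genotype there (63060 and 64590 FPKM), and the crypt markers to the lowest (200 and 101 FPKM). The median deviation of the 5 iron-sulfur genes from their means over all libraries, in log2, was 0.00, 0.06 and 0.37 in WT and -0.19, -0.28 and 0.04 in Esrra-/- replicates 1, 2 and 3. For the 4 heme genes it was -0.01, -0.03 and 0.11 in WT and 0.03, -0.09 and 0.16 in Esrra-/- libraries. These medians stand over genes that differ among themselves, such as Cpox and Ppox.
Differences were therefore also taken among libraries with Y-linked transcripts (2 WT and 2 Esrra-/-) and among those without (1 and 1, with no replicate). The log2 difference for Isca1 was -0.73 in the former and -0.70 in the latter. For Glrx5 it was -0.35 and -0.62, and for Isca2 -0.29 and -0.21. The difference of Isca1 was nearly as large in either pairing, whereas Iscu (-0.01 and -0.33), Cpox (-0.05 and -0.44) and Ppox (0.46 and -0.03) differed more between the pairings. The part of replicate 3 in these latter values was not tested.

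**Figure D3:**
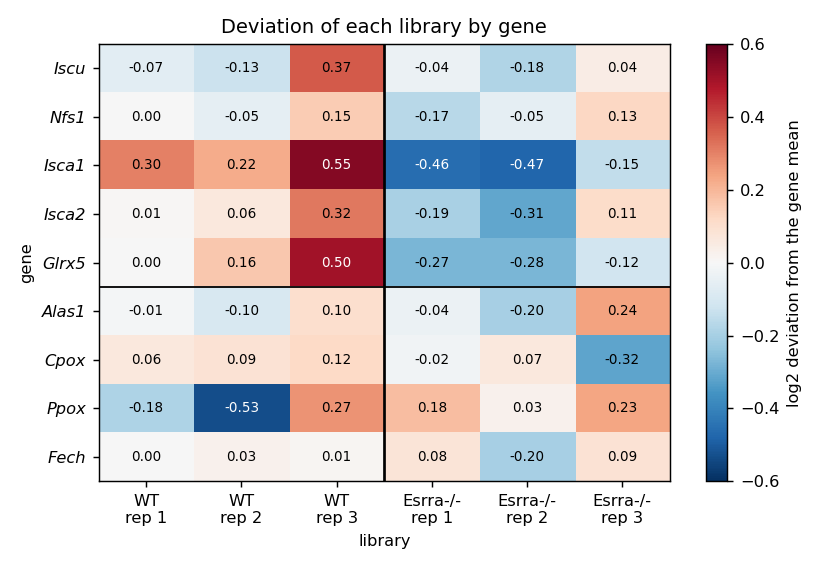
Deviation of log2(FPKM + 0.1) of each gene in each library from that gene's mean over the 6 libraries (colour scale, red above and blue below; values printed in the cells), with the iron-sulfur genes above the horizontal line and WT libraries left of the vertical line. Isca1 is above its mean in the 3 WT libraries and below it in the 3 Esrra-/- libraries, while WT replicate 3 is above the mean for all 9 genes.

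The 3 tested genes whose levels most resembled Isca1 across the 6 libraries were Ndufv1 (Pearson r = 0.998 on the log2 scale), Ndufs1 (r = 0.998) and Fh1 (r = 0.997). Ndufv1 and Ndufs1 encode subunits of respiratory complex I that hold iron-sulfur clusters, and Fh1 encodes fumarase of the TCA cycle. Ndufv1 was measured at 92.2, 83.3 and 108 FPKM in WT and 50.5, 50.5 and 61.5 FPKM in Esrra-/- libraries. Fh1 was measured at 35.4, 35.7 and 42.6 FPKM in WT and 20.8, 21.1 and 26.2 FPKM in Esrra-/- libraries (log2 fold change -0.74). In all, 242 tested genes had r above 0.9 with Isca1. These values describe 6 libraries that share the genotype difference and the high replicate 3, and carry no test.

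Other genes of mitochondrial iron-sulfur assembly were described from a list of 15, all of them tested. Of these 3 were called lower, against 3.28% of all genes tested, 12 were not called and none was called higher, and the list's median log2 fold change was -0.12. Without WT replicate 3, 1 was called lower and 1 higher, and without Esrra-/- replicate 2, 1 was called lower. Bola3, which acts with GLRX5 and NFU1 in passing clusters on, was measured at 44.4, 48.3 and 56.1 FPKM in WT and 28.1, 30.5 and 29.9 FPKM in Esrra-/- libraries. It fell by 0.74 ± 0.13 on the log2 scale (limma, adjusted p = 0.165), and its 3 Esrra-/- values were close together, without a high replicate 3.
Ndufab1, the mitochondrial acyl carrier protein that belongs to both complex I and the NFS1 complex, fell from 148 ± 27.3 to 91.0 ± 12.7 FPKM (log2 fold change -0.70 ± 0.19; limma, adjusted p = 0.309). Fdx1, a ferredoxin, had a log2 fold change of -0.59 ± 0.24 (limma, adjusted p = 0.44), just past both thresholds, and its groups overlapped. The list's other ferredoxin, Fdx1l (0.05 ± 0.12), and the ferredoxin reductase Fdxr (0.19 ± 0.17) were not called, and their intervals included 0. The call of Fdx1 was lost when WT replicate 3 was left out, at -0.40, and that of Ndufab1 at -0.55.
3 further genes of the list had p under 0.05 without the fold, and are named here because their values were seen. Hscb, the co-chaperone that moves the cluster off ISCU, stood at 11.0, 10.3 and 12.0 FPKM in WT and 7.88, 7.59 and 7.58 FPKM in Esrra-/- libraries (log2 fold change -0.52 ± 0.11). Its chaperone partner Hspa9 stood at 88.3 ± 5.64 against 63.9 ± 2.59 FPKM (-0.47 ± 0.13), and Lyrm4 at 4.94 ± 0.568 against 3.65 ± 0.544 FPKM (-0.43 ± 0.17). The Esrra-/- range was wholly below the WT range for these 3 and for Bola3 and Ndufab1, 5 of the 15 genes in the list, against 9.14% of all genes tested. By contrast the carrier Nfu1 (0.05) and Iba57 (-0.16), which acts with the ISCA proteins, had intervals that included 0.

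The cytosolic assembly machinery, which matures iron-sulfur proteins outside mitochondria, gave no call among its 11 genes (median log2 fold change -0.03). Without Esrra-/- replicate 3, 1 of them was called lower. The smallest p was that of Fam96a, a targeting subunit, which stood at 61.9, 66.5 and 68.6 FPKM in WT and 46.4, 41.4 and 50.4 FPKM in Esrra-/- libraries. Its groups did not overlap, and its log2 fold change of -0.51 ± 0.13 (limma, adjusted p = 0.295) was short of the fold threshold. The Esrra-/- range was wholly below the WT range for 4 of the 11 genes (Narfl, Fam96a, Bola2 and Glrx3), against 9.14% of all genes tested. At p under 0.05 without the fold, 3 of the 11 were lower (Fam96a, Bola2 and Glrx3), against 6.49%, and none was higher.

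Other enzymes and carriers of heme synthesis numbered 11, of which 10 passed the expression filter and none was called (median log2 fold change 0.07). Without WT replicate 1, 1 of them was called higher. Alas2, the synthase of red blood cells, did not pass, at 0.244 FPKM or less in every library. The cytosolic enzymes Alad (0.31 ± 0.25), Uros (0.23 ± 0.16) and Urod (-0.02 ± 0.19), had log2 fold changes whose intervals included 0. The smallest p belonged to Tmem14c, a carrier of porphyrin into mitochondria, at 96.4, 95.8 and 120 FPKM in WT and 76.2, 79.3 and 80.2 FPKM in Esrra-/- libraries. Its groups did not overlap (log2 fold change -0.40 ± 0.14; limma, adjusted p = 0.397). The 2 mitochondrial iron importers were not called either, at log2 fold changes of 0.03 for Slc25a37 and -0.11 for Slc25a28.
Erythroid transcripts were present at low levels, since the 8 erythroid markers summed to between 9.07 and 45.5 FPKM in WT and between 14.3 and 54.6 FPKM in Esrra-/- libraries. Slc4a1 and Alas2 were near 0 in all of them. Of the 3 tested markers Hba-a2 was called higher, and it shares nearly all its sequence with Hba-a1, which was not called, so the split of reads between them is uncertain.

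Of 3 genes that modify heme or attach it, 1 was called lower, against 3.28% of all genes tested. Cox10, which begins the conversion of heme to the heme a of cytochrome c oxidase, was measured at 10.3, 9.70 and 9.47 FPKM in WT and 5.40, 5.59 and 4.69 FPKM in Esrra-/- libraries. Both groups were tight and far apart, with a log2 fold change of -0.90 ± 0.12 (limma, adjusted p = 0.0826). The other genes of this list were Cox15, the next step to heme a, at 0.03 ± 0.24, and Hccs, which attaches heme to cytochrome c, at -0.34 ± 0.18, and neither was called.
Among 6 heme proteins 1 was called lower (3.28% of all genes tested), Cycs, the electron carrier cytochrome c, at 75.7, 79.3 and 101 FPKM in WT and 37.8, 36.4 and 50.2 FPKM in Esrra-/- libraries (log2 fold change -1.04 ± 0.18; limma, adjusted p = 0.165). The Esrra-/- mean was 41.5 FPKM against 85.3 FPKM in WT. The list's median was 0.00, since Cat, Cyb5a, Cyb5b and Suox had fold changes on both sides of 0, and Cyc1 of complex III, at -0.58 (limma, adjusted p = 0.431), missed the fold threshold narrowly. Without WT replicate 2, without Esrra-/- replicate 3, without the 2 libraries lacking Y-linked transcripts or under median-ratio scaling, 2 of the 6 were called lower.

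Heme breakdown and transport was described by 9 genes, of which 8 were tested and 1 was called higher, against 1.35% of all genes tested (median log2 fold change -0.05). Flvcr2, a transporter reported to carry heme and listed in the table as Mfsd7c, was measured at 3.81, 3.06 and 2.73 FPKM in WT and 14.6, 8.81 and 6.67 FPKM in Esrra-/- libraries. The lowest Esrra-/- library exceeded the highest WT library, and the log2 fold change was 1.55 ± 0.28 (limma, adjusted p = 0.175). Flvcr1, the related exporter, was not called (0.25 ± 0.36), nor was Slc46a1, a transporter of folate and heme (-0.07 ± 0.45), and Hmox1, the inducible heme oxygenase, lay below the filter. Of 4 iron-sensing genes none was called (median 0.06), and the smallest p was that of Fbxl5, the iron-dependent regulator of IRP2 breakdown, at 45.1, 43.8 and 49.8 FPKM in WT and 63.5, 52.3 and 54.8 FPKM in Esrra-/- libraries (log2 fold change 0.29 ± 0.13; limma, adjusted p = 0.486). The groups of Fbxl5 did not overlap, but the transferrin receptor Tfrc (-0.30 ± 0.28), the aconitase Aco1 (-0.06 ± 0.21) and Ireb2 (0.17 ± 0.15) overlapped between genotypes.

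The proteins that receive the clusters were described in 2 lists, by compartment. Of 14 mitochondrial iron-sulfur proteins 7 were called lower and none higher, against 3.28% and 1.35% of all genes tested, with a median log2 fold change of -0.50. The 7 were Ndufs1 (-0.62), Ndufs7 (-0.61), Ndufv1 (-0.80) and Ndufv2 (-0.69) of complex I, Sdhb (-0.64) of complex II, Uqcrfs1 (-0.87), the Rieske protein of complex III, and Cisd1 (-0.89) of the outer membrane. Uqcrfs1, for example, was measured at 177, 165 and 238 FPKM in WT and 104, 86.1 and 126 FPKM in Esrra-/- libraries. Others were not called, among them the lipoyl synthase Lias (0.17 ± 0.13) and Etfdh (-0.08 ± 0.14). The log2 fold changes of the 14 ran from -0.89 to 0.50, and whether members of the list differ from one another was not tested. Without WT replicate 3, 3 of the 14 were called lower and 1 higher, and without Esrra-/- replicate 1, 4 were.
Of 21 cytosolic and nuclear iron-sulfur proteins 20 were tested, none was called lower and 1 was called higher, against 1.35% of all genes tested (median -0.09). Other settings called 1 or 2 of this list lower: 1 under quantile normalization, without a trend, with the Y-linked covariate or without WT replicate 1, WT replicate 3 or the 2 libraries lacking Y-linked transcripts, and 2 with the replicate block or without Esrra-/- replicate 2. The gene called higher was Rsad2, an interferon-induced antiviral enzyme, at 1.96, 2.96 and 2.37 FPKM in WT and 6.31, 10.3 and 7.44 FPKM in Esrra-/- libraries (log2 fold change 1.67 ± 0.23; limma, adjusted p = 0.0826). Members such as Xdh (0.38 ± 0.18), Dpyd (0.07 ± 0.22) and Abce1 (-0.18 ± 0.18) were not called. Whether the difference between the mitochondrial and the cytosolic list exceeds what lists of correlated genes give was not tested.

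Over the 10 lists together, 92 of 95 genes were tested, 12 were called lower and 2 higher, and 56 had a negative and 36 a positive fold change (median -0.07). Over all 10596 tested genes 3.28% were called lower and 1.35% higher, and 4842 had a negative and 5754 a positive fold change. Of the 13 genes called lower in these lists and among the 9, 12 had a promoter window and 1, Isca1, held AAGGTCA. In the lists themselves AAGGTCA was found in 4 of 72 promoters, those of Ciao1, Glrx3, Alas2 and Mutyh, none of which was called (Alas2 was not tested).

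**Figure D4:**
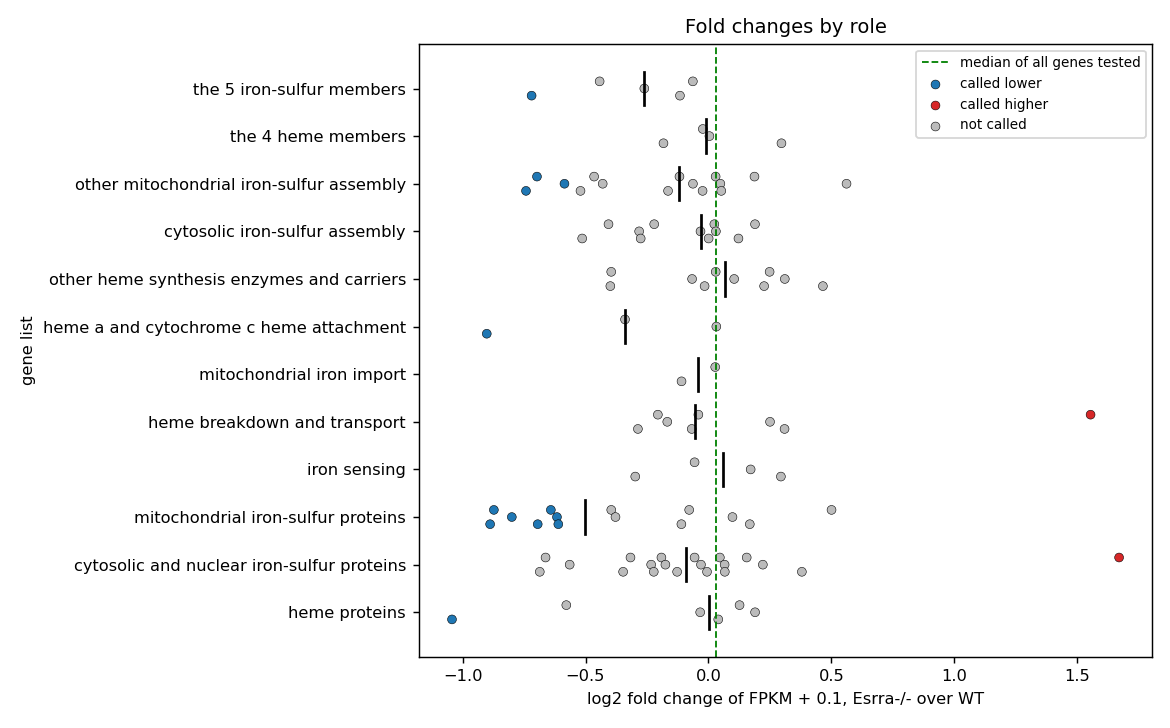
Log2 fold change of FPKM + 0.1 (Esrra-/- over WT, horizontal axis) of every tested gene, by role (rows; points are genes, black bars the list medians, the dashed green line the median of all genes tested, 0.03). Blue points were called lower and red points higher. With all libraries, 7 of the 14 mitochondrial iron-sulfur proteins and 3 of the 15 other mitochondrial assembly genes are blue. Of the genes described first, 1 of the 5 iron-sulfur and 0 of the 4 heme synthesis genes are, against 3.28% of all genes tested. Without WT replicate 3, 3 of the 14 and 1 of the 15 were called lower, and the share over all genes in that fit is not given here.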

How the data were processed

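RNA-seq libraries of duodenal epithelium were prepared with the Illumina TruSeq RNA v2 kit. The submitters' processing notes name FastQC 0.11.3, kallisto 2.1.0, DESeq2 2.2.1 and mm9, and the annotation used for quantification is not given in the sources used here. The authors deposited FPKM values of 22611 genes in the 6 libraries, calculated with DESeq2 per their methods. A second deposited table holds the authors' own comparison (mean normalized count, log2 fold change, standard error, test statistic, p-value and adjusted p) and was not used.

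Groups were taken from the genotype labels. The FPKM values were converted to log2(FPKM + 0.1) for the 10596 genes with a mean above 1 FPKM and fitted with limma 3.58.1 (lmFit, then eBayes with its trend option) in R 4.3.3, two-sided and without a covariate, and p-values were adjusted by Benjamini-Hochberg over these genes. Fold changes are on this scale and understate changes of low genes. A call needed p under 0.05 before adjustment together with a log2 fold change past 0.58 in size. These are the thresholds that the authors state for their own calls. The script was tested on simulated data. Exact permutation tests used the FPKM values of single genes. No read counts were used, so depth was judged only from low FPKM values.

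The members and lists were chosen with earlier results of these data known. Text names Esrra, all 9 members, the called genes of each list (or the one with the smallest p where none was called) and the 3 genes most like each called member. Other genes were named after their values were seen, and some genes of the lists are not reported here by name. Of the pathway lists, 4 symbols were matched through another symbol. Promoter sequences are from RefSeq (GRCm38.p6) and gene positions from the GENCODE annotation of mm9. Alternatives were another pseudocount, other filters, scalings and thresholds, no trend, a Y-linked covariate, the replicate number as a block, and leaving out each library.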

Additional observations from a re-analysis of the deposited data

How the results depend on the processing

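Isca1 was called lower in all 15 alternative fits, with log2 fold changes of -0.82 to -0.62 and an adjusted p (limma) of 0.0402 to 0.759, and Bola3, Cox10, Cycs, Ndufv1, Uqcrfs1, Cisd1, Flvcr2 and Rsad2 were called in each of them too. Glrx5 was past both thresholds in none (-0.55 to -0.30), and Fdx1 in 9. At an adjusted p under 0.05, 0 of the 9 genes and 0 lower and 0 higher genes of the lists were called, with 2 lower and 2 higher over all genes. With no fold threshold, 2 of the 9 and 20 lower and 3 higher genes of the lists were called, with 688 lower and 456 higher over all genes. With no filter on low values, 528 genes were lower and 277 higher.

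Leaving out each library in turn gave 7 to 14 lower and 2 to 4 higher genes of the lists, both extremes of 7 and 4 without WT replicate 3, and 252 to 537 lower genes of all tested, 537 without Esrra-/- replicate 2. The fold changes near 0 turned sign. Alas1 was at -0.056 under quantile normalization and -0.011 under median-ratio scaling, and at -0.12 to 0.104 with 1 library left out. Iscu ranged from -0.21 to 0.040, Nfs1 from -0.14 to 0.0048 and Fech from -0.073 to 0.071 with 1 library left out. Without the 2 libraries lacking Y-linked transcripts, a setting chosen after seeing the data, Alas1 was at -0.063, Isca1 stayed called, and 13 lower and 2 higher genes of the lists were called, with 348 lower and 214 higher over all genes. The cause of these shifts was not tested.

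Libraries with the same replicate number deviated from their group means with correlations of 0.0116, 0.263 and 0.376. Between libraries of different number the correlations ranged from -0.366 to 0.182. The labels do not say that the numbers pair mice, so the main fit took no pairing, and whether they do was not tested. With the replicate number as a block, 441 genes were lower and 192 higher, 14 and 2 in the lists, Isca1 was still the called gene of the 9, and the median log2 fold change of the 9 was -0.12, which a block cannot move. With 1 library left out that median ranged from -0.18 to -0.02, the latter without WT replicate 3.

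Ppox ranged from 0.11 to 0.51 with 1 library left out. The fold threshold keeps smaller changes from being called at any number of libraries, and depth was known only from low values.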
